A study of Homo sapiens with 4 samples.

Results

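Promoter regions whose sequence occurs more than once in the genome were examined for binding of RPF-1, a transcription factor carrying an HA tag, in HEK293, a human embryonic kidney cell line. A probe on the arrays carries a field named count, read here as the number of genomic places that its sequence matches. A probe is called single-match at a count of 1 and multi-match from a count of 2. A design region (a tiled promoter as named in the files) was a member when it lay on chromosomes 1 to 22, held 10 or more probes and had at least 50% of them multi-match. This rule uses the array design alone and not the measured ratios. It gave 786 members out of 16959 autosomal regions with 10 or more probes (4.63%) and out of 18028 design regions in all. The members hold 16041 of the 386230 probes, and 13679 of the 24464 multi-match probes. In 316 members every probe is multi-match, and 470 members also hold single-match probes. A further 22 autosomal regions reached 50% but had under 10 probes and are not members.

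The data are 4 ChIP-chip arrays, which measure immunoprecipitated DNA by hybridisation. On each array, anti-HA precipitate of induced cells (48 h in medium without tetracycline, Cy5) was compared with anti-HA precipitate of uninduced cells (48 h with tetracycline, Cy3). Both cultures come from the same stable line, so the uninduced cells carry the tagged factor too, in its switched-off state. The labels do not say whether the line is 1 clone. Per the labels, both were fixed with 1% formaldehyde for 10 min, sheared to 500 bp on average and precipitated with 5 µg of antibody, and there was no dye swap. A log2 ratio above 0 is read as more DNA in the precipitate of induced cells, relative to the middle of that array. Induced cells were Cy5 on every array, so a difference between the dyes cannot be told apart from one in precipitated DNA. This holds for all ratios below, also where they are graded by count. The ratios had standard deviations of 0.698 to 0.752 log2 over the probes of an array, and the median of each array was 0 or -0.01. The number of arrays limits the precision. The labels give arrays 2 to 4 their own preparation numbers and array 1 none, and nothing says that the preparations were separate cultures. The p-values therefore measure the spread between these arrays, which may be technical.

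Duplicated promoter sequence in the human genome arises from segmental duplications, which are long blocks copied within or between chromosomes, and from gene families that expanded in tandem. Such blocks are common near chromosome ends and centromeres. A probe placed in such sequence can hybridise with DNA from each of its copies. Its ratio is then a joint value of all those copies, and it cannot say which of them was precipitated. The genome build of the positions is not given in the sources used here. Regions are therefore given by their positions in the files, and gene names and DNA sequence were not used here.

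Members were higher in the induced precipitate far more often than lower. Of the 786 members, 406 (51.7%) were higher and 23 (2.93%) were lower in induced cells (limma over 17765 design regions, Benjamini-Hochberg adjusted p threshold 0.05, n = 4 arrays). Over all design regions tested, the same test called 13.9% higher and 13.6% lower. The median member stood at 0.264 log2, against -0.0029 over all regions tested. By at least 0.5 log2, 177 members were called higher and 2 lower, and the background of such calls was 2.45% and 0.839%. The number of calls changed when 1 array was left out, with 263 members higher and 7 lower without array 2, and 260 and 7 without array 4. Without array 1, the count of lower members was 13. The shares called over all design regions in these fits are not given here, so the change is not read as a trait of members. This also holds for the counts of calls under other settings below. The mean difference between members and other autosomal regions was 0.271 to 0.328 log2 when 1 array was left out.

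Each array showed the shift. The member mean was 0.177, 0.333, 0.377 and 0.267 log2 in arrays 1 to 4, and the mean of the other 16173 autosomal regions was -0.0118, -0.0025, 0.0185 and -0.0227. Array 1 had the smallest shift and array 3 the largest, and in each array the member mean lay above that of the other regions. The difference was 0.293 ± 0.075 log2 (SD, n = 4), a 1.23-fold higher ratio. An exact sign-flip test over 4 arrays cannot give a two-sided p below 1 in 8, so averages over the members are given as values with their spread and without a p. Within the array series that the file names give, the difference was 0.324 for N44 (arrays 3 and 4) and 0.262 for N39 (arrays 1 and 2). The region distributions overlapped widely, since the member quartiles were 0.0747 and 0.471 log2 and those of the other regions -0.144 and 0.127. Members also varied more between arrays, with a median SD of 0.188 log2 against 0.141 for the other regions.

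**Figure D1:**
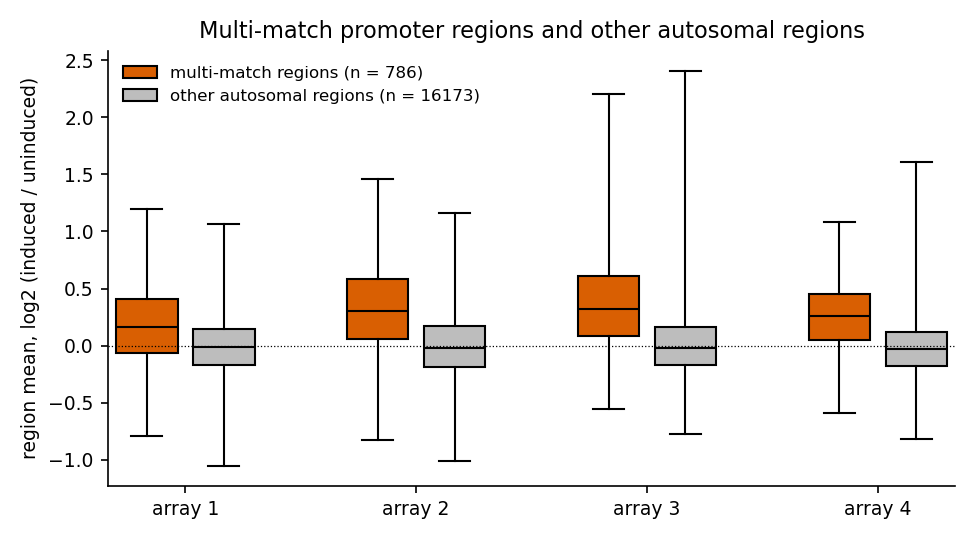
Region mean log2 ratio (induced over uninduced) in each of the 4 arrays, for the 786 multi-match regions and the 16173 other autosomal regions. Boxes span the quartiles with the median as a line, and whiskers reach the lowest and highest region. The median of the multi-match regions lay between 0.165 (array 1) and 0.317 (array 3), and that of the other regions between -0.03 and -0.0105.

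The ratio was graded by the mean count of a region. That mean is taken over all its probes, so it reflects both the number of matches and the share of single-match probes. Every member with a mean count under 2 holds single-match probes. Among 195 members with a mean count under 2, the mean was 0.148 ± 0.074 log2 (SD, n = 4 arrays). It was 0.186 ± 0.066 in 283 members with a mean count of 2 to under 3, and 0.349 ± 0.131 in 149 members with 3 to under 5. It was 0.521 ± 0.101 in 105 members with 5 to under 10, and 0.712 ± 0.118 in 54 members with 10 and over. Each step between neighbouring classes was upward in all 4 arrays. The step between the 2 lowest classes was the smallest, at 0.038 ± 0.015, and those above it were 0.162 ± 0.068, 0.173 ± 0.047 and 0.19 ± 0.052. The top class exceeded the lowest by 0.564 ± 0.066, a 1.48-fold higher ratio. Arrays 1, 3 and 4 put that difference at 0.521, 0.537 and 0.534, and array 2 put it at 0.663.

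The calls followed the same order. With a mean count of 10 and over, 54 of 54 members were called higher, and the lowest of them stood at 0.273. The share called higher was 81.9% with 5 to under 10, 63.1% with 3 to under 5, 39.6% with 2 to under 3 and 30.8% under 2. The lower calls lay at the other end, with 7 in the class under 2, 15 in the class of 2 to under 3, 1 in the class of 3 to under 5 and none above. Across the 786 members, the mean count on a log2 scale and the mean ratio had a Pearson correlation of 0.588 and a Spearman correlation of 0.532. These are descriptions, because members share arrays and often sequence. Mean probe length, which varies with base composition, was 52.3, 52.5, 53.0, 52.4 and 52.3 bases from the lowest to the highest class and did not follow the ratio. Its correlation with the ratio across members was 0.12.

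**Figure D2:**
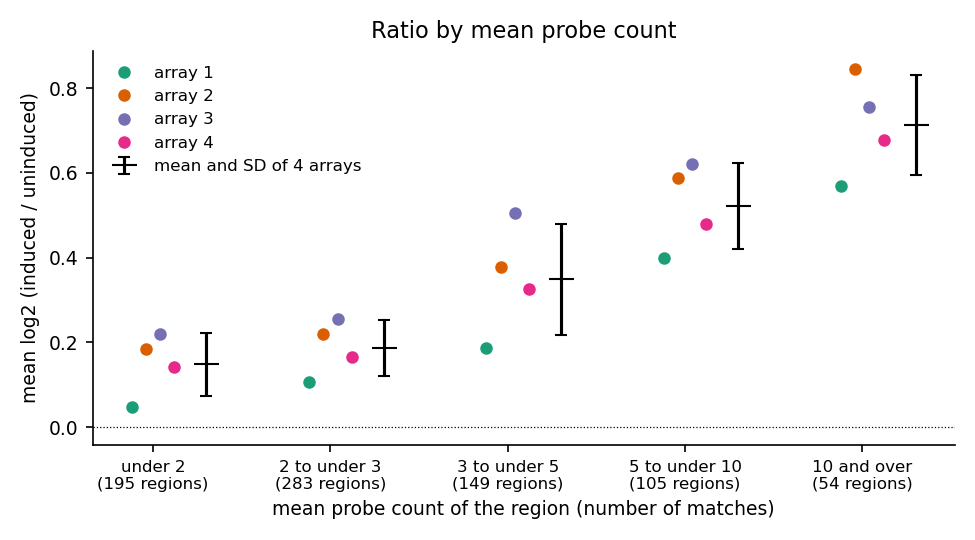
Mean log2 ratio (induced over uninduced) of the members in 5 classes of mean probe count. Coloured points are the 4 arrays, and black marks the mean with its SD over arrays. Each array climbs from the class under 2 (0.0475 to 0.219) to the class of 10 and over (0.568 to 0.846).

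Single probes showed the same gradient inside members and outside them. In members, probes with a count of 2 averaged 0.165 ± 0.061 log2, against 0.191 ± 0.087 for probes with that count in the other autosomal regions (SD, n = 4 arrays). Probes with a count of 5 to 9 averaged 0.607 ± 0.120 in members and 0.563 ± 0.112 in the other regions. Those with a count of 10 or more averaged 0.735 ± 0.115 in members and 0.699 ± 0.170 elsewhere. At equal count, the paired differences between members and other regions were small and changed sign between counts. Members minus other regions was -0.0253 ± 0.0334 at a count of 2, -0.0575 ± 0.0264 at 3 to 4, 0.0438 ± 0.0111 at 5 to 9 and 0.0354 ± 0.0927 at 10 or more. All 4 arrays were below 0 at 3 to 4 and above 0 at 5 to 9, and they were split at the other counts. Single-match probes inside members averaged 0.0638 ± 0.0889, with -0.0557, 0.0945, 0.156 and 0.0604 in arrays 1 to 4, and those of the other regions averaged -0.0106 ± 0.0150. Array 1 was below 0 in members and the other arrays were above, so this smaller shift was not shared by all arrays.

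Both probe classes could be compared inside the same promoter. In 322 members with at least 3 probes of each class, multi-match probes averaged 0.284 ± 0.094 log2 and single-match probes 0.065 ± 0.096 (SD, n = 4 arrays). The difference was 0.225, 0.240, 0.214 and 0.198 in arrays 1 to 4, or 0.219 ± 0.018. It varied between arrays much less than either class did. Per region, multi-match probes were higher in 112 members and lower in 13 (limma over 1352 regions with both classes, adjusted p threshold 0.05). Those shares, 34.8% and 4.04%, stand beside 41.1% and 4.22% of all regions tested, and neither lies above that background. In 918 other autosomal regions the difference was 0.333 ± 0.059. Members minus these regions gave -0.0389, -0.110, -0.190 and -0.117 in arrays 1 to 4, so the contrast was smaller in members in each array. Without array 2 there were 68 higher and 5 lower calls in members, and without array 1 there were 7 lower calls.

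The within-promoter difference also grew with the count of its multi-match probes. It was 0.121 ± 0.014 log2 in 100 members whose multi-match probes all had a count of 2, and 0.203 ± 0.020 in 104 members with a mean count over 2 and under 3. It was 0.312 ± 0.029 in 73 members with 3 to under 5, and 0.326 ± 0.039 in 45 members with 5 and over. The 2 upper classes did not differ beyond their spread. The single-match probes of the same 4 classes averaged 0.0515, 0.0557, 0.0327 and 0.167, each with an SD of 0.0826 to 0.138 between arrays. Across the 322 members, the means of the probe classes had a Pearson correlation of 0.295.

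The promoters with the largest such contrasts lay on chromosomes 9 and 11. On chromosome 9 from 21196642 to 21199342, multi-match probes exceeded single-match probes by 1.68, 0.942, 2.22 and 1.21 log2 in arrays 1 to 4 (1.51 ± 0.56, adjusted p = 0.00037, limma). Its 14 multi-match probes averaged 0.356 and its 5 single-match probes -1.16, so the region mean was -0.0425 and was not called. These p-values measure the spread between arrays and not the spread between the probes of a class. On chromosome 11, the region from 55644224 to 55646924 gave 1.34 ± 0.57 and the region from 55626894 to 55629594 gave 1.24 ± 0.35 (adjusted p = 0.00069 and 0.00029, limma). These regions lie close together and have counts of at most 3. Array 3 was the highest array at the first of them, at 2.18.

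The opposite contrast was found in fewer members. On chromosome 1 from 200696293 to 200698993, 17 multi-match probes averaged -0.187 and 6 single-match probes 0.664 log2, a difference of -0.851 ± 0.191 (adjusted p = 0.00069, limma). It was below 0 in every array, at -0.884, -1.03, -0.914 and -0.580. The difference was -0.636 ± 0.261 on chromosome 16 from 160674 to 163374 (adjusted p = 0.0034) and -0.533 ± 0.231 on chromosome 7 from 127901853 to 127904553 (adjusted p = 0.0068, limma). In all 3 the highest count was 2. The chromosome 16 region held 4 single-match probes and the chromosome 7 region 3. Over all single-match probes of members, the SD between probes was 0.582 log2. The p-values do not include that spread, so whether these contrasts belong to the probe classes or to the few probes involved was not tested. The chromosome 7 call was lost with medians over probes (adjusted p = 0.061, limma) and within series N44 (adjusted p = 0.056, limma).

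**Figure D3:**
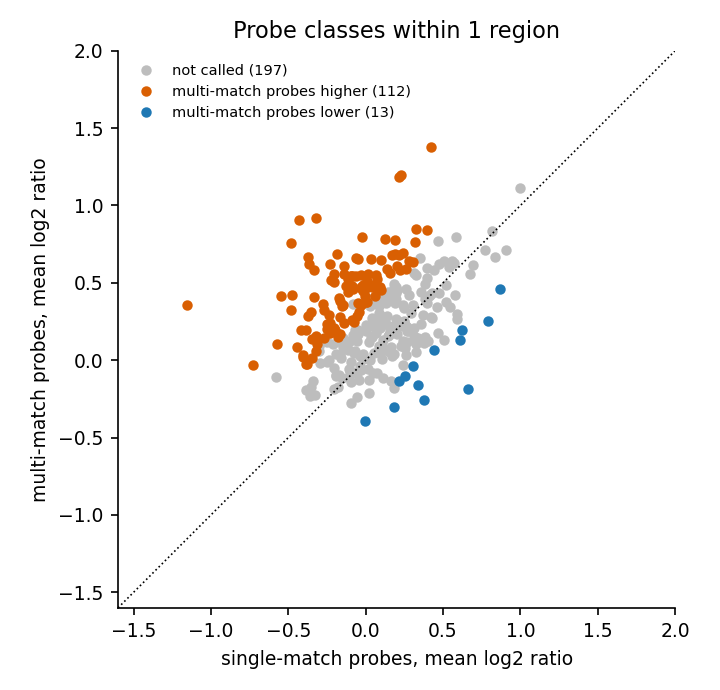
Mean log2 ratio of multi-match probes (vertical axis) against that of single-match probes (horizontal axis) in the 322 members with at least 3 of each, averaged over 4 arrays. The dotted line marks equality. Orange marks the 112 members with higher multi-match probes and blue the 13 with lower ones (limma, adjusted p threshold 0.05).

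The mean of the other regions differed between chromosomes, from -0.0830 log2 on chromosome 4 to 0.0772 on chromosome 12. Each member was therefore also set against the median of its 10 nearest all-single-match regions. Members exceeded these neighbours by 0.323 ± 0.081 log2 (SD, n = 4), with 0.214, 0.352, 0.407 and 0.319 in arrays 1 to 4. The neighbours themselves averaged -0.0348 ± 0.0136. Of the 786 members, 450 were higher and 16 lower than their neighbours (limma over 17744 regions, adjusted p threshold 0.05), against a background of 16.6% and 10.8%. The lower calls numbered 4 without array 2 and 6 without array 4. Of the 406 members called higher against 0, 371 were also called higher than their neighbours, and of the 23 called lower, 11 were also called lower than theirs. Both tests use the same region means, so part of this overlap is built in. The same overlap over all design regions is not given here.

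Among called members, the region on chromosome 7 from 151566422 to 151569122 was the highest. Its 21 probes, 20 of them multi-match, gave 0.964, 1.15, 2.21 and 0.924 log2 in arrays 1 to 4 (1.31 ± 0.60, adjusted p = 0.0008, limma). Array 3 stood well above the other arrays, which lay close together. The region on chromosome 8 from 106524 to 109224 had multi-match probes only and a mean count of 8.96. It gave 0.943, 0.947, 2.12 and 0.963 (1.24 ± 0.58, adjusted p = 0.00093, limma). On chromosome 1 from 355321 to 358021, every probe had a count of 9, and the arrays gave 0.973, 1.08, 1.93 and 0.984 (1.24 ± 0.46). On chromosome 5 from 180724693 to 180727393, the mean count was also 9 and the values were 0.941, 1.06, 1.92 and 0.801 (1.18 ± 0.50). In all of these array 3 stood apart as the highest, and the other arrays lay close to 1.

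Further high members differed in how even they were across arrays. On chromosome 19 from 151928 to 154628, with a mean count of 26.6, the arrays gave 1.03, 1.42, 1.09 and 0.924 log2 (1.12 ± 0.21, adjusted p = 4.3e-05, limma). The region on chromosome 6 from 31025337 to 31028037 had 16 multi-match probes of 26 and gave 1.19, 1.28, 0.760 and 1.04 (1.07 ± 0.23). Its single-match probes averaged 0.995 and its multi-match probes 1.11, a difference of 0.118 ± 0.130 that was not called, so both classes were high there. By contrast, on chromosome 19 from 61052998 to 61055698 the multi-match probes averaged 1.38 and the single-match probes 0.424, a difference of 0.956 ± 0.433 (adjusted p = 0.0013, limma). Its region mean was 1.06 ± 0.24, with array 2 highest at 1.42. On chromosome 12 from 10463961 to 10466661 the counts were at most 3, and the arrays gave 0.673, 0.428, 2.03 and 0.939 (1.02 ± 0.71, adjusted p = 0.0046, limma). Array 3 was again far above the rest there, and the SD was the widest of the 12 highest members. There the 19 multi-match probes averaged 1.19 and the 4 single-match probes 0.217.

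The remaining 4 of the 12 highest members also had means above 1. The one on chromosome 5 starting at 69590079 stood at 1.12 ± 0.46 log2, with array 3 highest at 1.79, and the one on chromosome 4 starting at 48994633 at 1.06 ± 0.27. Those on chromosome 9 (start 69669051) and chromosome 15 (start 19616121) stood at 1.06 ± 0.25 and 1.02 ± 0.26. Among the 12, those at 1.79 or more in array 3 had mean probe lengths of 54.1 to 57.1 bases, and the others 50.5 to 53.8. Whether the values of array 3 varied with probe length was not tested. All 12 were above 0 in every array, which the choice of these regions required. They lay 0.931 to 1.37 log2 above their single-match neighbours. This also follows largely from the choice of the highest means, since the neighbours of members averaged -0.0348. The members with the highest mean counts were all called higher. Besides both chromosome 19 regions above, these include chromosome 7 from 4596443 to 4599143, where the mean count was 27.7 and the region stood at 0.781 ± 0.237 log2. On chromosome 10 from 38775077 to 38777777 the mean count was 25.6 and the ratio 0.975 ± 0.162. On chromosome 8 from 7106507 to 7109207 the mean count was 24.5 and the ratio 0.735 ± 0.314, with array 1 lowest at 0.272. The highest ratio and the highest count did not coincide, since the region with the highest ratio had a mean count of 4.29.

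Lower members were few and had low counts. Of the 23, 22 had a mean count under 3 and 11 had a mean count of exactly 2, and their median was -0.272 log2. The lowest was on chromosome 3 from 68133943 to 68136643, where all 21 probes had a count of 2 and the arrays gave -0.672, -0.824, -0.514 and -0.591 (-0.65 ± 0.13, adjusted p = 0.00051, limma). Relative to its neighbours it stood at -0.416 and was called lower there too (adjusted p = 0.0019, limma). The region on chromosome 1 from 246680521 to 246683221 gave -0.783, -0.539, -0.473 and -0.287 (-0.52 ± 0.20). Its neighbours were low as well, and relative to them it stood at -0.076 and was not called. The same held on chromosome 8 from 7710148 to 7712848, at -0.344 ± 0.123 and at -0.033 relative to its neighbours.

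The other lowest members were also lower than their neighbours. They were chosen for low region means, which enter this comparison too, so part of it is built in. The region on chromosome 4 starting at 75527516 stood at -0.405 ± 0.170 log2 and at -0.301 relative to its neighbours (adjusted p = 0.0082, limma). On chromosome 8, the region starting at 145520850 stood at -0.382 ± 0.076 and at -0.24 relative to its neighbours (adjusted p = 0.025, limma). On chromosome 7, the region starting at 143643950 stood at -0.354 ± 0.255 and at -0.413 relative to its neighbours (adjusted p = 0.0091, limma). At the chromosome 7 region, arrays 1 and 2 gave -0.611 and -0.535 and arrays 3 and 4 gave -0.134 and -0.136, so the array series did not overlap there. Without array 1 or array 2 this region was no longer called (adjusted p = 0.07 and 0.11, limma). Within series N44 alone, the calls on chromosome 4 and at the chromosome 8 region from 7710148 were lost (adjusted p = 0.066 and 0.077, limma).

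Near the threshold of 50% multi-match probes, single regions on both sides varied, and they are given as values with no test. The member on chromosome 22 from 18635316 (13 of 26 probes multi-match) stood at -0.00077 log2. With 12 of 24 probes each, the member on chromosome 4 from 4279022 stood at 0.26 and that on chromosome 19 from 11934668 at 0.0626. Just outside it, with 13 of 27 probes multi-match, the region on chromosome 16 from 1214755 stood at 0.0636 and that on chromosome 2 from 234284176 at -0.0588. The third, on chromosome 1 from 199446192, stood at 0.588. The one high value among these 6 belonged to the region with the highest mean count among them, 3.52.

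Members occurred on every autosome, at uneven density. They made up 9.26% of the tested regions on chromosome 7, 8.07% on chromosome 17 and 7.89% on chromosome 22, and 1.01% on chromosome 13. The member mean was above 0 on all 22 chromosomes when averaged over the arrays, and on 20 of them in each array. The exceptions were chromosomes 3 and 18, where array 1 gave -0.0659 and -0.0640. The highest chromosome means were 0.563 ± 0.178 on chromosome 12 (17 members), 0.475 ± 0.139 on chromosome 13 (3 members) and 0.454 ± 0.134 on chromosome 5 (27 members). On chromosome 12, 16 of 17 members were called higher, against 21.5% of the other regions of that chromosome, the autosome with the highest mean of other regions (0.0772). On chromosome 15, 31 of 40 members were called higher, against 11.4% of its other regions. The lowest means were 0.092 ± 0.106 on chromosome 3 (16 members) and 0.13 ± 0.16 on chromosome 18 (6 members). Chromosomes also differed in the mean count of their members, which was lowest on chromosomes 3 (2.28) and 18 (2.32) and highest on chromosome 15 (6.28). It was 3.54, 2.69 and 4.47 on chromosomes 12, 13 and 5. Location was not separated from count here. On every autosome the members averaged above the other regions of that chromosome, by 0.113 (chromosome 3) to 0.533 log2 (chromosome 13).

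**Figure D4:**
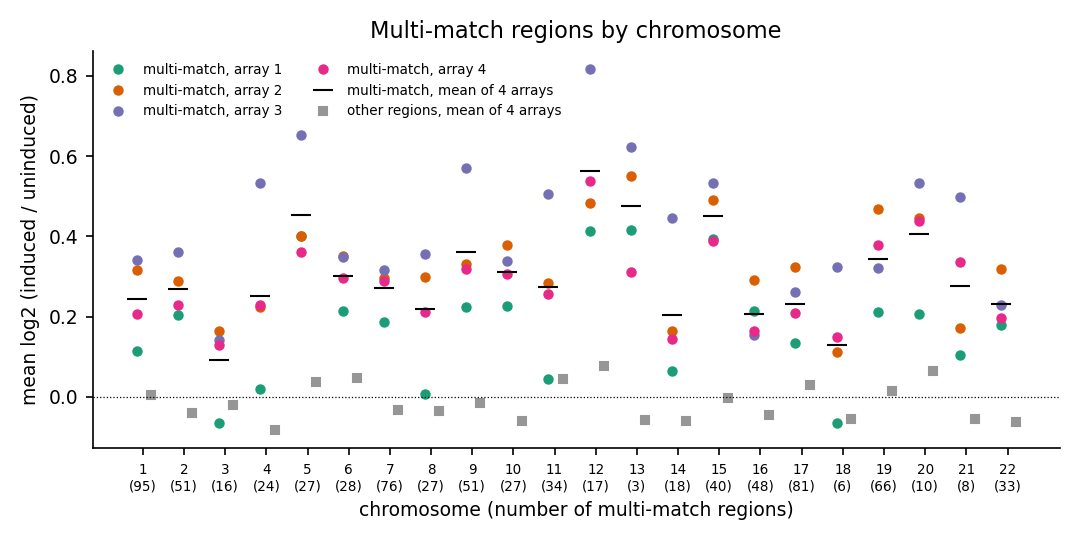
Mean log2 ratio (induced over uninduced) of the members of each autosome in each of the 4 arrays, with their mean as a line, and the mean of the other regions of that chromosome as a grey square. The number of members is in brackets. The line lies above the grey square on all 22 chromosomes.

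Members tended to lie together. Joined where they are within 1 Mb of each other, they formed 250 groups, of which 92 are a single member and 48 hold 5 or more members (421 members in all). Members of 1 group may share sequence and are not independent. Of the 48 larger groups, 45 had a mean above 0 and 38 were above 0 in every array. The members averaged 0.288 log2, so these counts are not separate from that mean. No such groups were formed from the other regions for comparison. The group on chromosome 19 from 47935961 to 49554866 was the most even. Its 12 members ranged only between 0.45 and 0.76 log2, and their SD of 0.09 compares with a median of 0.256 over the 48 groups. All 12 were called higher, against 13.9% of all design regions tested and 51.7% of all members. Their mean count was 5.56, and 81.9% of the members with a mean count of 5 to under 10 were called higher. The group mean was 0.524, 0.927, 0.438 and 0.631 in arrays 1 to 4 (0.630 ± 0.213), with array 2 the highest.

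Other high groups were more mixed. On chromosome 12 from 10463961 to 11401991, 6 members averaged 0.649 ± 0.460 log2, with 0.231, 0.445, 1.30 and 0.623 in arrays 1 to 4. Array 3 was far above the other arrays and raised that mean, and every array was above 0. On chromosome 9 from 69669051 to 70162134, 6 members averaged 0.644 ± 0.170 and ranged between 0.00044 and 1.06. On chromosome 5 from 69010342 to 70707867, 11 of 12 members were called higher, and the group averaged 0.605 ± 0.167. The mean count of the members was 2.68 in the chromosome 12 group, 5.46 in the chromosome 9 group and 6.64 in the chromosome 5 group. The lowest group was on chromosome 1 from 246680521 to 246883008, with 7 members at -0.228 ± 0.181, of which 2 were called lower and none higher. Their mean count was 2.01. Array 1 gave -0.50 there and arrays 2 to 4 gave -0.133, -0.140 and -0.140. Relative to their single-match neighbours the direction turned, and these members averaged 0.216 ± 0.143, above 0 in every array. In the group on chromosome 8 from 6824512 to 7894653, 5 of 14 members were called higher and 2 lower, with a range of -0.344 to 0.735. Over all design regions tested, 13.9% were called higher and 13.6% lower. Relative to their single-match neighbours these 14 members averaged 0.464 ± 0.177, above 0 in every array.

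Members near an end of the tiled design were compared with those farther away. That end need not be the end of the chromosome. On chromosome 15, the member from 19616121 counted as near an end, at 0.645 Mb from the first design region. The 166 members within 5 Mb of the first or last design region of their chromosome averaged 0.258 ± 0.074 log2, and the other 620 members 0.297 ± 0.090. The difference was -0.0139, -0.0347, -0.0597 and -0.0455 in arrays 1 to 4 (-0.038 ± 0.019), small beside the SD of 0.306 between members. The same difference among the other autosomal regions was -0.0336 ± 0.0474, of like size and below 0 in 3 of 4 arrays. With multi-match taken from a count of 3 the difference turned to 0.0665.

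Some members appeared to be copies of one another as far as the array design shows. They were paired where at least 10 multi-match probes, and at least 80% of the probes of the smaller region, had the same distance from the region start, the same probe length and the same count. At least 3 of the shared probes had to be longer than 50 bases. This rule, chosen after the data were seen, gave 12 pairs of 24 members, 9 pairs on 1 chromosome and 3 across chromosomes. Probe sequences were not used here, so whether the paired regions hold the same sequence was not tested. The region means of a pair differed by 0.0021 to 0.189 log2 (median 0.073). In 10 of the 12 pairs that was less than the SD between arrays of either region. Both regions of a pair are read on the same arrays, so that SD is not the spread of their difference. In 5 of the 12 pairs the difference had the same direction in all arrays.

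The probes of a pair also followed each other along the promoter. Over the shared probes, averaged over the 4 arrays, the profiles of the paired regions had a Pearson correlation of 0.277 to 0.945 (median 0.84), and in 11 of 12 pairs it was 0.70 or more. Within single arrays the median correlation of a pair was 0.396 to 0.781 (median over pairs 0.688). Between different arrays at 1 and the same region it was 0.252 to 0.719 (median 0.448). Probes along 1 region are not independent and share base composition with their partners, so these are descriptions.

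The pair on chromosomes 1 and 5, from 355321 and from 180724693, shared all 23 probes and both were among the 12 highest members. The regions differed by 0.06 ± 0.083 log2 over the arrays, their profiles correlated at 0.908, and both had their lowest values at the first 2 probes. The high value of array 3 was present in both, at 1.93 and 1.92. The pair on chromosomes 1 and 19, from 56753 and from 59478, stood at 1.01 ± 0.64 and 1.01 ± 0.56 and correlated at 0.811. The pair on chromosomes 1 and 8, from 611397 and from 106524, stood at 1.19 ± 0.53 and 1.24 ± 0.58 but correlated only at 0.277. Its profiles were the flattest among the cross-chromosome pairs, with an SD of 0.358 and 0.363 between probes.

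Pairs also shared ratios near 0. On chromosome 16, the members from 29376494 and from 30115836 had the highest correlation, 0.945, with region means of 0.105 ± 0.262 and -0.0241 ± 0.120 log2. On chromosome 17, the members from 31560380 and from 31661946 stood at 0.0340 and -0.0215 and correlated at 0.839. On chromosome 10, the members from 17889167 and from 18136157 were both below 0, at -0.109 ± 0.138 and -0.195 ± 0.114. The largest difference was on chromosome 1, where the members from 144768479 and from 146065583 stood at 0.696 ± 0.269 and 0.885 ± 0.243.

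**Figure D5:**
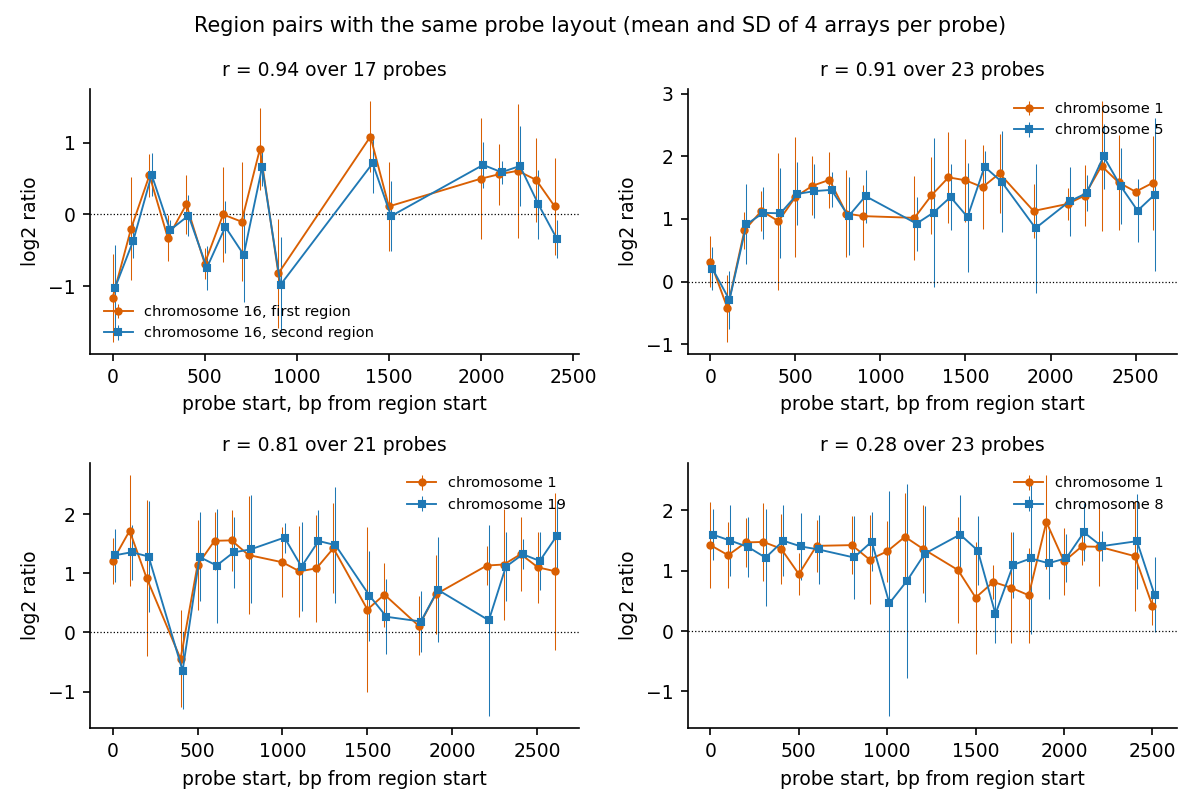
Log2 ratio of each shared probe (mean and SD of 4 arrays) against its distance from the region start in base pairs, for 4 pairs of members with the same probe layout. The chromosome 16 pair (r = 0.945), the pair on chromosomes 1 and 5 (0.908) and the pair on chromosomes 1 and 19 (0.811) follow each other along the promoter, and the pair on chromosomes 1 and 8 (0.277) does so less.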

How the data were processed

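The authors deposited 1 probe table per array with the log2 ratio of the Cy5 (induced) over the Cy3 (uninduced) channel. Per the file headers, NimbleScan wrote these ratios with a biweight mean for each array. The base of the logarithm was taken as 2. The sources used here name neither a genome build nor how the count field was made. The median over all probes was subtracted from each array, and probe ratios were averaged per design region with 10 or more probes. Region means, within-region differences and differences to 10 neighbours were each tested against 0 with limma 3.58.1 in R 4.3.3, over all design regions with a value, with Benjamini-Hochberg adjustment. Tables were handled with Python 3.11.15, and the fit was tested on simulated data.

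Each array holds both an induced and an uninduced precipitate, so the 4 arrays form 1 group of ratios. The members and the lists of regions were chosen with earlier results of these data known. Regions named one by one were, among called members with 1 sign in all arrays, the 12 highest and 6 lowest, at most 1 per group of members. The 5 with the highest mean count, the 3 largest within-region contrasts in each direction, and the 3 regions on each side of the share threshold were added. Groups of members and pairs of equal probe layout were picked for description after their values were seen. Alternatives varied the scaling, probe summary, thresholds, array series and arrays. Another 3 were added after seeing the data. They used single-match probes only, all-single-match regions as the rest, or means over groups.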

Additional observations from a re-analysis of the deposited data

Results flagged for a closer look

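Values of the 4 arrays were screened for an array standing apart from the others (Dixon's test at 95%). Of 149 values screened, 12 were flagged, and chance alone flags about 1 in 20, or about 7. Of the 12, 5 concern a high array 3. It gave 2.12 log2 for the region on chromosome 8 from 106524, against 0.943 to 0.963 in the other arrays. For the region on chromosome 1 from 355321 it gave 1.93, against 0.973 to 1.08. The members of chromosome 5 averaged 0.654 in array 3, against 0.361 to 0.402, and the group there from 69010342 averaged 0.855, against 0.519 to 0.526. The within-promoter difference on chromosome 11 from 55644224 was 2.18 in array 3, against 0.954 to 1.15. In the group on chromosome 17 from 40923393 array 3 was instead the lowest, at 0.184, against 0.368 to 0.401.

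Array 2 was the highest in 3 cases. It gave 1.42 for the region on chromosome 19 from 61052998, against 0.908 to 0.993, and 0.203 for the region on chromosome 22 from 18635316, against -0.0892 to -0.0569. The difference between the highest and the lowest count class was 0.663 in array 2, against 0.521 to 0.537. Array 1 was the lowest in 3 cases. The members of chromosome 3 averaged -0.0659 there, against 0.130 to 0.164. The group on chromosome 17 from 31453132 averaged -0.254, against 0.157 to 0.183. The group on chromosome 1 from 246680521 averaged -0.500, against -0.140 to -0.133.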

How the results depend on the processing

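No paired analysis was possible because each array already holds its induced and uninduced precipitate as 1 ratio. Leaving out each array in turn, members minus other regions ranged from 0.271 to 0.328 log2, the within-promoter difference from 0.212 to 0.226, members minus neighbours from 0.295 to 0.360, the top minus the lowest count class from 0.531 to 0.578 and the end difference from -0.0466 to -0.0314. Members called higher ranged from 260 to 410 and lower from 7 to 27, within-promoter calls from 68 to 101 higher and 5 to 10 lower, and calls against neighbours from 328 to 459 higher and 4 to 16 lower. With multi-match taken from a count of 3, 251 of 346 members were higher (72.5%) and 3 lower, members minus other regions was 0.445, members minus neighbours 0.488 with 272 higher and 3 lower, the within-promoter difference 0.333 with 36 of 85 higher and 1 lower, and the end difference 0.0665. With 90% or more multi-match probes, 267 of 441 members were higher (60.5%) and 286 higher than their neighbours. Lower members numbered 36 with probe length subtracted, 38 with a trended and robust fit and 12 within series N44. Series N44 alone also gave 58 higher and 4 lower within-promoter calls and 6 members lower than neighbours. Medians over probes gave a within-promoter difference of 0.244 with 8 lower, and at least 5 probes of each class gave 0.239. With single-match probes only, members minus other regions was 0.0759. The cause of these shifts was not tested. Of the named regions, the one on chromosome 22 from 18635316, never called, changed sign to 0.0567 within series N39 and ranged from -0.0686 to 0.0287 when an array was left out. Of 418 combinations of a named region and a setting, 403 kept direction and call, 11 lost the call and 4 changed sign. Dropping repeated rows was not run, since no member row repeats another. No mixed member was left at 90%, and no member of the lowest count class at a count of 3.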

Other observations

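Multi-match regions outside the autosomes, chosen by the same share of probes, did not all lie on the same side of 0. Over all design regions tested, 13.9% were called higher and 13.6% lower (limma, adjusted p threshold 0.05). The 79 such regions of chromosome X averaged 0.171, 0.429, 0.416 and 0.341 log2 in arrays 1 to 4 (0.339 ± 0.119, SD), with 48 called higher and none lower. The other 643 regions of chromosome X averaged 0.0536 ± 0.0578, with 19.3% called higher and 10.1% lower. The 17 multi-match regions on random contigs averaged 0.40 ± 0.098, with 11 called higher and none lower, and the 4 other regions there averaged 0.163 ± 0.081. The 45 multi-match regions of chromosome Y averaged -0.456, -0.370, -0.243 and -0.357 (-0.356 ± 0.088), with 3 called higher and 25 lower. The other 18 regions of chromosome Y were lower still, at -0.793 ± 0.090, and all 18 were called lower. Whether the chromosome Y probes had target DNA in these cells was not tested, so these ratios are not read as lost binding. The multi-match regions therefore stood above the other regions on both sex chromosomes, and the low ratios of chromosome Y were not limited to them.

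Of the 12 pairs of equal probe layout, 5 differed in the same direction in all arrays. Counted by groups rather than by regions, the 250 groups of members averaged 0.286 ± 0.092 log2 and exceeded the other autosomal regions by 0.291 ± 0.079 (SD, n = 4).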
